A study of Mus musculus with 2 samples.

Results

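The genes described here were 9 long noncoding RNA genes measured by bulk RNA-seq in mouse pituitary cells. They were chosen by name out of the 47069 genes of the deposited table, and all 9 were found in it. The group held 4 RNAs taken here as nuclear (*Malat1*, *Neat1*, *Miat* and *Tug1*), although *Tug1* is also found outside the nucleus. It also held 5 host genes of small nucleolar RNAs, or snoRNAs (*Gas5*, *Snhg1*, *Snhg11*, *Snhg12* and *Snhg14*). GENCODE M21 files *Snhg11* under protein-coding genes, while the other 8 carry long noncoding gene types, antisense in the case of *Tug1*.

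The study asked whether RNA-Best, a buffer meant to stabilize cells and their RNA together, keeps the expression profile of cells. The pituitary arm held 2 samples of acutely dissociated primary pituitary cells, 1 placed at once in RNA-Best and 1 placed at once in RNAlater, a widely used RNA stabilization reagent. Both came from female C57BL/6 mice 10 to 12 weeks old at no fixed stage of the cycle. The labels name no mutation and no drug, and the glands were digested with collagenase and pancreatine and the cells washed and put into M199 medium beforehand. Each sample was a pool of 5 pituitaries with 500000 to 700000 cells, and no untreated sample was analysed here beside them. With 1 library in each group there were no replicates, so no test between the stabilizers was possible, no p-value or SD is given, and every interval covers counting error only.

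Long noncoding RNAs are long transcripts that are not known to be translated. *Malat1* gathers in nuclear speckles, which store splicing factors, and *Neat1* is the scaffold around which paraspeckle proteins assemble. *Miat* is a nuclear RNA that binds splicing regulators, and *Tug1* is a broadly expressed RNA found both in the nucleus and outside it. The host genes carry snoRNAs in their introns. Many snoRNAs guide the modification of ribosomal RNA, but not all do, and this is not meant for those of *Snhg14*. The spliced host RNA is a by-product that in several cases, including *Gas5*, is broken down by nonsense-mediated decay. *Snhg14* is an imprinted transcript that runs over the large snoRNA clusters next to *Snrpn* and on into the antisense strand of *Ube3a*.

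Libraries of poly(A) RNA are made from RNAs that carry a run of adenosines, so the annotated 3′ ends of the nuclear RNAs are shown first. The mature 3′ end of *Malat1* is known to be cut by RNase P next to an A-rich tract encoded in the gene, and the piece after the cut is trimmed into the tRNA-like mascRNA. The capitals below mark this tract in *Malat1* (chr19:5795924-5796019, minus strand, GRCm38), the signal AATAAA at the end of the short *Neat1* transcript (chr19:5842473-5842532, minus strand), and the A-rich tract at the end of the long *Neat1* transcript (chr19:5824708-5824767, minus strand). All are exonic and are written 5′ to 3′ from GENCODE M21 transcripts.

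Malat1 A-rich tract: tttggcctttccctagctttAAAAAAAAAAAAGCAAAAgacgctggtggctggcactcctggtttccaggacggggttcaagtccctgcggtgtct

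Neat1 short transcript end: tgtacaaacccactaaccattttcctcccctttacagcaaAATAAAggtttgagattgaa

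Neat1 long transcript end: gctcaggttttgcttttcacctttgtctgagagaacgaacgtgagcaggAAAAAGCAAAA

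The 58 bases that follow the *Malat1* tract are the whole of the RefSeq mascRNA entry (chr19:5795924-5795981), for which the count table had no gene. The last 11 bases of the long *Neat1* transcript, AAAAAGCAAAA, were searched on the transcript strand. They also occurred in the longest transcripts of *Malat1* and *Snhg11*, and with these in 182 of the 16443 longest transcripts of tested genes (1.11%). They ended the transcript in 3 of the 16443, *Neat1* included. The tail signal AATAAA lay in the last 40 bases of the longest transcript in 6 of the 9 members and in 52.3% of the 16443. *Miat* and *Gas5* held the variant ATTAAA there, and the long *Neat1* transcript held neither. These matches describe the annotation and do not show where the measured RNAs ended.

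Of the hosts, a snoRNA of each class and the transcription starts are shown, since the snoRNA defines a host and some hosts share a form of start with ribosomal protein genes. A box C/D snoRNA is framed by box C (TGATGA) and box D (CTGA), and a box H/ACA snoRNA ends 3 bases after the letters ACA. One of each is shown with these boxes in capitals: Snord47, within *Gas5* (chr1:161038082-161038158, plus strand), and Snora61, within *Snhg12* (chr4:132310240-132310369, plus strand).

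Snord47: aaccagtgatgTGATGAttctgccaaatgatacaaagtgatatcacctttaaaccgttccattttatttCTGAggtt

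Snora61: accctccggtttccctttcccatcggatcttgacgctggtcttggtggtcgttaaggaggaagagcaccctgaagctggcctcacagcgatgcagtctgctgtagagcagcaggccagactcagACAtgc

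Transcripts of ribosomal protein genes and of *Gas5* are known to start at a C followed by a run of pyrimidines. The next lines give 10 bases before and 30 bases after RefSeq starts on GRCm38.p6, with the longest run of C and T near the start in capitals: *Gas5* (chr1:161035156-161035195), *Snhg12* (chr4:132308668-132308707), *Snhg1* (chr19:8723477-8723516) and *Snhg11* (chr2:158375703-158375742), all on the plus strand.

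Gas5 start 2: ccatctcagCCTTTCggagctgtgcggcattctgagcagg

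Snhg12 start 1: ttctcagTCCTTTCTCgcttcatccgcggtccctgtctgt

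Snhg1 start 1: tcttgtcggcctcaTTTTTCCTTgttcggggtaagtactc

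Snhg11 start 1: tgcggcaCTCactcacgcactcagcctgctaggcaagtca

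RefSeq promoter windows were found for 8 of the 9 members, all but *Neat1*. A C with at least 4 more pyrimidines, read on the transcribed strand within 2 bases of the start, was present in 2 of the 5 hosts (*Snhg12*, and *Gas5* at the second of its 2 RefSeq starts but not the first) and in 1 of 3 nuclear RNAs (*Miat*). With a gene counted if any of its windows matched, the share was 12.1% of tested genes (8.96% over all 32851 windows), 4 of 14 other noncoding snoRNA hosts and 23 of 69 genes taken as ribosomal protein genes. The 14 hosts are those with a promoter window, and some of them are not analysed below. These 69 were picked by a symbol of Rpl or Rps followed by a digit. That form can take in other genes and miss some ribosomal protein genes. Over tested genes, the median log2 ratio between the libraries (RNA-Best over RNAlater) was −0.20 in the 1368 genes with such a start and −0.21 in the 9901 without.

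The libraries held 53915047 counts (RNA-Best) and 44917492 counts (RNAlater). Counts were scaled to counts per 1000000 of the library total (CPM), and ratios are given as log2 of RNA-Best over RNAlater after adding 0.5 CPM to both. Over the 16504 genes that averaged 1 CPM or more, called tested here, the median ratio was −0.18, and 3 other scalings placed that median between −0.06 and 0.00, so the members are also described by their place among all genes. Both libraries expressed pituitary endocrine markers, with 9 of 9 above 1 CPM and a summed level of 313637 CPM (RNA-Best) and 246242 CPM (RNAlater), of which 8 were higher in RNA-Best. The markers of other cells were also present in both, and none was at 0. The summed level was 341 CPM (RNA-Best) and 702 CPM (RNAlater) for 6 endothelial markers (0 higher in RNA-Best), 547 and 721 CPM for 6 of pericytes and fibroblasts (0 higher), 176 and 275 CPM for 5 of stem and folliculostellate cells (0 higher), and 120 and 219 CPM for 5 of the posterior lobe (0 higher). It was 352 and 407 CPM for 6 neuronal markers (1 higher), 145 and 136 CPM for 5 of macrophages (2 higher), and 3200 and 1130 CPM for 5 erythroid genes (5 higher). Under each of the 3 other scalings, 9 endocrine and 3 neuronal markers were higher. Under DESeq2 size factors alone, 1 marker of pericytes and fibroblasts was higher. The counts of the other marker lists stayed the same. By CPM, 33% of all tested genes had a ratio above 0. The median longest transcript was 1.0 kb for endocrine markers and 0.7 kb for erythroid genes, against 2.1 to 5.0 kb in the other marker lists. Ratios were lower for long transcripts, as described below, and the part of length in the marker ratios was not tested. The part of cell composition in the ratios below was not tested either. In bulk samples fewer cells of a type and less RNA per cell cannot be told apart.

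All 9 members were well above the filter in both libraries, with at least 965.99 counts each. None was 2-fold higher or lower in either library, where 5.27% of all tested genes were 2-fold different (0.273% higher and 4.99% lower in RNA-Best), as were 1.51% of the 729 long noncoding genes tested. Across that narrow range the hosts lay above the nuclear RNAs by CPM. The hosts were also shorter, with a median longest transcript of 2.73 kb against 8.07 kb, and beside genes of like length, described below, the groups overlapped. The ratios of the 5 hosts ran from 0.01 to 0.45 with a median of 0.31, and those of the 4 nuclear RNAs from −0.40 to −0.01 with a median of −0.27. Summed over the group, the hosts made up 840 CPM (RNA-Best) and 632 CPM (RNAlater), and the nuclear RNAs 335 and 368 CPM.

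**Figure D1:**
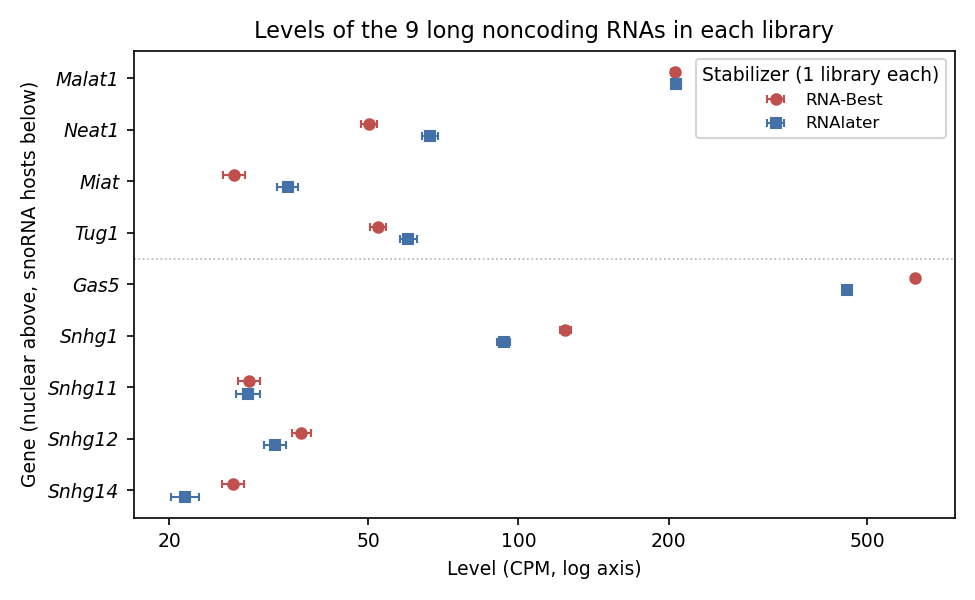
Level of each of the 9 genes in CPM (horizontal log axis) in the RNA-Best library (circles) and the RNAlater library (squares), with 95% counting intervals as bars. *Gas5* is the highest at 623 and 456 CPM, and *Snhg14* had 26.9 and 21.5 CPM, within counting error of *Miat* in RNA-Best.

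*Malat1* (ENSMUSG00000092341.2, chr19:5795690-5802672, minus strand, annotated without introns over 6983 bases) had the most counts of the nuclear RNAs. It had 11080 counts (RNA-Best) and 9304 counts (RNAlater), or 206 and 207 CPM. The levels lay within counting error of each other, with a log2 ratio of −0.01 (−0.05 to 0.03). Under the 3 other scalings the ratio was between 0.12 and 0.17, so its sign was set by the scaling.

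*Neat1* (ENSMUSG00000092274.2, chr19:5824708-5845478, minus strand) is the neighbour of *Malat1* on chromosome 19 and has annotated transcripts of 3004 and 20771 bases, whose reads were counted together. It had 2710 counts (RNA-Best) and 2986.5 counts (RNAlater), or 50.3 and 66.5 CPM. It was 1.32-fold lower in RNA-Best, with a log2 ratio of −0.40 (−0.48 to −0.33), the lowest of the 9. Measured within each library and so free of scaling, *Malat1* gave 4.09 counts for each *Neat1* count in RNA-Best and 3.12 in RNAlater.

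*Miat* (ENSMUSG00000097767.8, chr5:112213228-112229395, minus strand) had 1452 counts (RNA-Best) and 1549 counts (RNAlater), or 26.9 and 34.5 CPM. *Tug1* (ENSMUSG00000056579.17, chr11:3639785-3649673, minus strand) had 2826.5 and 2706 counts, or 52.4 and 60.2 CPM. Both were lower in RNA-Best, *Miat* 1.28-fold (log2 ratio −0.35, −0.46 to −0.25) and *Tug1* 1.15-fold (−0.20, −0.28 to −0.12). *Tug1* lay beside the median of all genes, with 47.7% of tested genes below it, while 30.3% lay below *Neat1*, 34.1% below *Miat* and 65.9% below *Malat1*. A ratio below 0 was seen in 4 of 4 nuclear RNAs by CPM (3 under the other scalings, without *Malat1*) and in 67% of all tested genes. The counting interval was wholly below 0 for 3 of the 4 nuclear RNAs, all but *Malat1*, and for 51.2% of all tested genes, so neither count was far from the background.

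*Gas5* (ENSMUSG00000053332.13, chr1:161034422-161038539, plus strand), a host of 10 annotated snoRNAs, had the most counts of the 9. It had 33594.3 counts (RNA-Best) and 20475.8 counts (RNAlater), or 623 and 456 CPM, and ranked 93 and 144 among all genes. It was 1.37-fold higher in RNA-Best, with a log2 ratio of 0.45 (0.43 to 0.48), and 93.4% of tested genes had a lower ratio. For each *Malat1* count there were 3.03 *Gas5* counts in RNA-Best and 2.20 in RNAlater.

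*Snhg1* (ENSMUSG00000108414.1, chr19:8723475-8726443, plus strand), a host of 8 annotated snoRNAs, had 6695 counts (RNA-Best) and 4200.5 counts (RNAlater), or 124 and 93.5 CPM. It was 1.33-fold higher in RNA-Best, with a log2 ratio of 0.41 (0.35 to 0.47). *Gas5* and *Snhg1* kept nearly the same proportion to each other, with 5.02 *Gas5* counts for each *Snhg1* count in RNA-Best and 4.87 in RNAlater.

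*Snhg12* (ENSMUSG00000086290.8, chr4:132308623-132311024, plus strand), a host of 5 annotated snoRNAs, had 1983 counts (RNA-Best) and 1464.33 counts (RNAlater), or 36.8 and 32.6 CPM. Its ratio was smaller than those of *Gas5* and *Snhg1*, at 0.17 (0.08 to 0.27) or 1.13-fold. *Snhg11* (ENSMUSG00000044349.15, chr2:158375638-158386145, plus strand), known mostly from neurons, had 1555.33 and 1291.07 counts, or 28.8 and 28.7 CPM. Its levels lay within counting error of each other (log2 ratio 0.01, −0.10 to 0.11).

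*Snhg14* (ENSMUSG00000100826.6, chr7:59307924-59975759, minus strand) spans the longest stretch of the 9, with 208 annotated snoRNA genes inside it. It had 1447.67 counts (RNA-Best) and 965.99 counts (RNAlater), or 26.9 and 21.5 CPM. It was 1.25-fold higher in RNA-Best, with a log2 ratio of 0.31 (0.20 to 0.44). *Snrpn*, the protein-coding gene at the head of the same imprinted domain, had 41.5 and 39.5 CPM and a ratio of 0.07 (−0.02 to 0.16).

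The counting interval was wholly above 0 for 4 of the 5 hosts, all but *Snhg11*, and for 20.2% of all tested genes. A ratio above 0 was seen in 5 of 5 hosts, in 33% of all tested genes and in 48% of the 729 long noncoding genes tested. The lowest host and the highest nuclear RNA, *Snhg11* and *Malat1*, differed by only 0.02 on the log2 scale and their intervals overlapped.

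**Figure D2:**
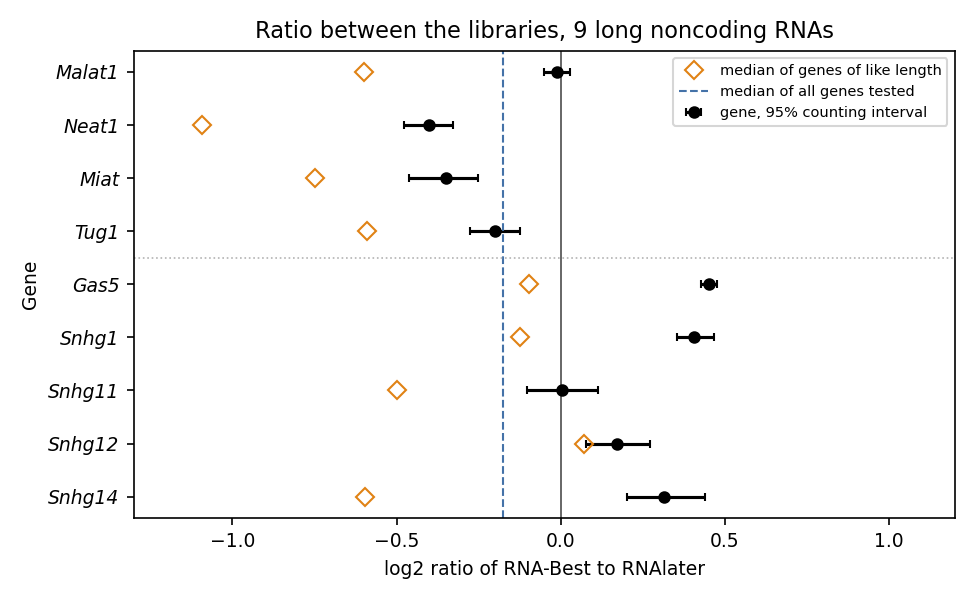
Log2 ratio of RNA-Best to RNAlater for each gene (black points with 95% counting intervals), the median ratio of genes with a transcript of like length (open diamonds), the median of all tested genes (dashed line, −0.18) and 0 (solid line). Every black point lies to the right of its diamond, and the 5 hosts lie at or right of 0, although the sign of *Malat1* turned positive under the other scalings.

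CPM and counts of different genes depend on their lengths, so an order of levels is given per length, as CPM per kilobase of merged annotated exons. In RNA-Best the order was *Gas5* (166), *Snhg1* (41.8), *Malat1* (29.4), *Snhg12* (15.3), *Tug1* (5.39), *Snhg11* (3.39), *Miat* (2.90), *Neat1* (2.42) and *Snhg14* (1.03), and no 2 neighbours overlapped in their counting intervals. In RNAlater it was *Gas5* (121), *Snhg1* (31.5), *Malat1* (29.7), *Snhg12* (13.6), *Tug1* (6.19), *Miat* (3.71), *Snhg11* (3.37), *Neat1* (3.20) and *Snhg14* (0.824). The first 5 places and the last 2 were the same in both. *Miat* and *Snhg11* changed places, and in RNAlater the intervals of *Miat* and *Snhg11*, and of *Snhg11* and *Neat1*, overlapped. These levels depend on the annotation, since the exons of all annotated transcripts were merged (26093 bases in *Snhg14*, 20771 in *Neat1*) and a shorter RNA in the cells would have a higher level per kilobase. Per kilobase of the longest transcript instead, *Snhg11* was above *Miat* in both libraries (4.92 and 2.94 in RNA-Best, 4.90 and 3.76 in RNAlater), and *Snhg14* in RNA-Best (3.91) was above *Miat* and *Neat1*, so the order below *Tug1* rested on the length used.

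Ratios in these libraries were lower for genes with long transcripts. The median was 0.32 in the 531 tested protein-coding genes of up to 1 kb and −0.65 in the 1730 of 6 to 10 kb. Each member was therefore also set beside all tested genes whose longest annotated transcript was within 20% of its own length. On this scale 9 of 9 members lay above the median of genes of like length, by 0.10 to 0.91 on the log2 scale.

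*Snhg14* stood farthest above its length class. The 1915 genes of like length had a median ratio of −0.59, and 99.2% of them had a lower ratio than *Snhg14*. *Malat1*, with equal CPM in the libraries, lay 0.59 above the median of its 1851 genes of like length (−0.60), and 94.3% of them lay below it. *Gas5* and *Snhg1* lay 0.55 and 0.53 above theirs, and *Snhg11* lay 0.51 above.

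*Miat* and *Tug1*, lower in RNA-Best by CPM, lay above their length classes by 0.40 and 0.39. *Snhg12*, the shortest member, lay 0.10 above a median of 0.07, the least of the 9 and less than any of the 4 nuclear RNAs. *Neat1* lay 0.69 above, but on 25 genes of like length. By the longest transcript the hosts did not lie above the nuclear RNAs, since *Neat1* and *Malat1* exceeded *Gas5*, *Snhg1*, *Snhg11* and *Snhg12*. This order rested on the length used. With merged exons, *Gas5* (0.61), *Snhg1* (0.49), *Snhg11* (0.46) and *Snhg14* (1.17) exceeded every nuclear RNA, of which *Malat1* (0.37) was highest. *Snhg12* (0.19) did not. The short *Neat1* transcript, an alternative chosen after the data were seen, gave the opposite side, with *Neat1* 0.24 below the median of 3759 genes near 3004 bases. With the median rather than the longest annotated transcript, also chosen after the data were seen, 7 of 9 members lay above, and *Neat1* and *Miat* fell below their classes by 0.17 and 0.28. *Malat1* then lay only 0.02 above its class, with 52.2% of it below. *Snhg14* (0.39 above) came after *Gas5* (0.50) and *Snhg1* (0.44). All hosts but *Snhg11* (0.11) exceeded *Tug1* (0.12), the highest nuclear RNA by this length.

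Long noncoding genes as a whole showed less of this slope. The 160 of up to 1 kb had a median of 0.12, the 170 of 3 to 6 kb −0.11, and the 16 of 6 to 10 kb −0.11, beside −0.65 for protein-coding genes of that last length. *Malat1*, *Miat*, *Tug1* and *Snhg14*, all of 6 to 10 kb, are among those 16. Beside their own gene type, then, *Malat1* (−0.01) and *Snhg14* (0.31) lay above the median, and *Tug1* (−0.20) and *Miat* (−0.35) below it. The 6 long noncoding genes over 10 kb, *Neat1* included, had a median of −0.34, and *Neat1* (−0.40) lay below that.

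**Figure D3:**
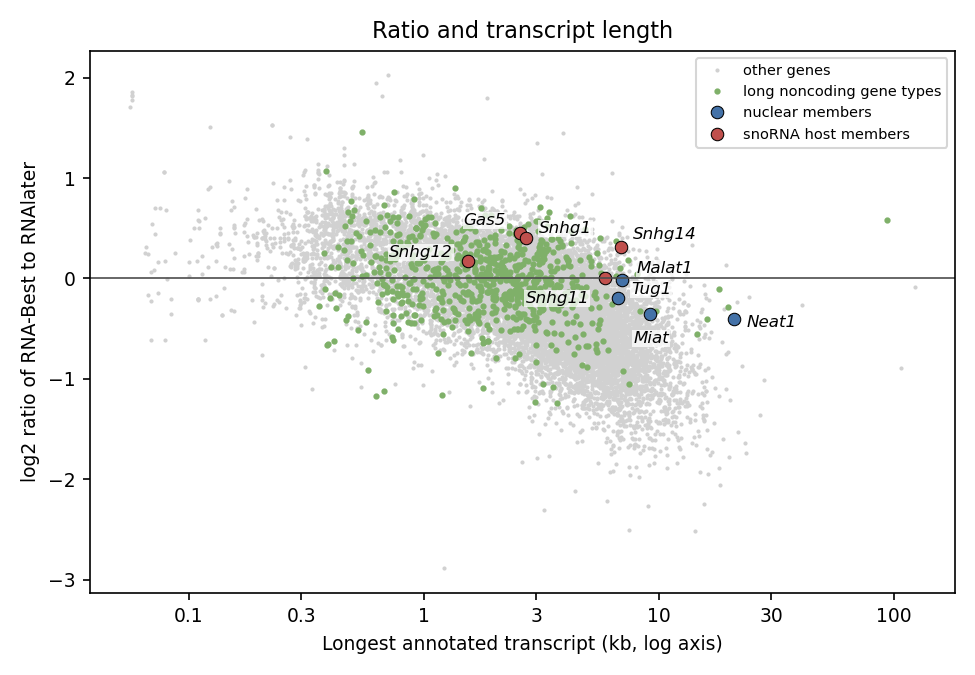
Log2 ratio of RNA-Best to RNAlater (vertical axis) against the length of the longest annotated transcript (horizontal log axis, kb) for all tested genes with an annotated length (grey), long noncoding gene types (green), the 4 nuclear RNAs (blue) and the 5 hosts (red). The grey cloud falls at long lengths (median −0.65 at 6 to 10 kb), and *Snhg14*, *Malat1* and *Tug1* lie in its upper part together with other long noncoding genes.

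Of 17 further noncoding snoRNA hosts listed, 14 were in the table and 11 passed the filter. Among these 11, 9 had a ratio above 0 by CPM and 11 under each of the 3 other scalings, and all 11 lay above the median of all genes. None was past 2-fold, and the median was 0.16. By CPM, 33% of all tested genes and 48% of the long noncoding genes tested had a ratio above 0. The 11 hosts were short, with a median longest transcript of 1.49 kb. At 1 to 2 kb, 112 of 208 long noncoding genes were above 0 (median 0.02). So were 1321 of 2157 protein-coding genes (median 0.09). The part of length in the ratios of these hosts was not tested. Of the 11, *Zfas1* was highest at 0.52 (151 CPM in RNA-Best and 104 in RNAlater), followed by *Snhg18* at 0.50 (111 and 78.3 CPM). *Snhg15* was lowest at −0.07 (19.6 and 20.6 CPM). *Rian*, the imprinted host of a large snoRNA cluster and the most abundant of the list, was at 0.04 (1686 and 1636 CPM). *Snhg3* (3 and 3 counts), *Dancr* (10 and 15) and *Snhg9* (45.5 and 22.5) were under the filter, and *Snhg4*, *Snhg7* and *Snhg10* are not analysed here.

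Many snoRNAs lie in protein-coding genes, and those did not lie together as a class. The following split was chosen after the data were seen. Of 226 tested protein-coding genes with an annotated snoRNA inside them on the same strand, 69 had a ratio above 0, and the median was −0.23. The 28 ribosomal protein genes among them, picked by the same form of symbol as above, all had a ratio above 0 (median 0.50). Of the other 198, 41 did (median −0.29). The groups differed in length, with a median longest transcript of 1.26 kb in the ribosomal protein genes and 4.33 kb in the others, and the part of length in this difference was not tested. Of 25 tested long noncoding genes with a snoRNA inside, members included, 19 had a ratio above 0, and the median was 0.16. Their median longest transcript was 1.99 kb, and 48% of the 729 long noncoding genes tested had a ratio above 0.

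Of 22 other well-known long noncoding RNAs listed, 17 passed the filter, and 5 of these had a ratio above 0 (10 under the other scalings), with a median of −0.05. Only *Rpph1*, the RNA subunit of RNase P, was past 2-fold, at 1.39 with 100 counts (RNA-Best) and 18 counts (RNAlater), where the added 0.5 CPM lowers the ratio. At 1.85 CPM (RNA-Best) and 0.40 CPM (RNAlater) it passed the filter only through RNA-Best, so little weight rests on it. *Norad* was lowest at −0.88 (14.2 and 26.6 CPM). The 3 most abundant were *Meg3* at −0.55 (1463 and 2142 CPM), *Xist*, which coats the silenced X chromosome, at −0.11 (515 and 555 CPM), and *Firre* at −0.46 (243 and 334 CPM). *Meg3* and *Rian* come from the same imprinted locus, and *Rian* had 1.15 counts for each *Meg3* count in RNA-Best and 0.763 in RNAlater.

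The partners of the members were read from lists of genes encoding them. For comparison, 33% of all tested genes had a ratio above 0 by CPM and 67% a ratio below 0. These shares were not counted under the other scalings. Of 16 snoRNP proteins, which bind and mature snoRNAs, 9 had a ratio above 0 (12 or 13 under the other scalings) and none was past 2-fold. Their median was 0.09, with *Nhp2*, a box H/ACA core protein, highest at 0.61 and *Naf1*, an assembly factor, lowest at −0.67. The 3 most abundant were *Nop58* (163 and 194 CPM), *Nop56* (112 and 118 CPM) and *Nop10* (40.4 and 28.1 CPM).

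Of 14 paraspeckle proteins, 12 had a ratio below 0 (10 under the other scalings), as had 67% of all tested genes by CPM. The median was −0.22, near the −0.18 of all tested genes, and *Neat1* was at −0.40. *Smarca4*, a chromatin remodelling ATPase, was the only one past 2-fold, at −1.12 (44.3 and 96.9 CPM), and *Matr3* was highest at 0.06 (198 and 190 CPM). *Hnrnpk* (321 and 350 CPM), *Matr3* and *Tardbp* (161 and 185 CPM) were the most abundant. Of 16 nuclear speckle proteins, 13 had a ratio below 0 (8 or 9 under the other scalings), with a median of −0.19. That was near the −0.18 of all tested genes, and *Malat1* was at −0.01. *Srrm2*, a speckle scaffold, was past 2-fold at −1.46 (105 and 290 CPM), and *Srsf3* was highest at 0.10. The most abundant were *Sf3b1* (318 and 394 CPM), *Srsf5* (288 and 386 CPM) and *Srsf6* (242 and 258 CPM). The longest transcripts of *Smarca4* and *Srrm2* are 6.38 and 8.86 kb. Of 1730 tested protein-coding genes of 6 to 10 kb, 364 were at least 2-fold lower in RNA-Best.

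Of 3 splicing regulators known to bind *Miat*, 3 had a ratio below 0 under every scaling, at −0.74 for *Qk*, −0.60 for *Sf1* and −0.54 for *Celf3*. Of 14 factors of nonsense-mediated decay, 11 had a ratio below 0 (9 under the other scalings), with a median of −0.40 beside −0.18 for all tested genes. *Smg1* was lowest and past 2-fold at −1.08, and *Magoh* was highest at 0.28. *Smg1* has a longest transcript of 15.6 kb. The median longest transcript was 3.83 kb for the decay factors and 4.35 kb for the *Miat* partners. Protein-coding genes of 3 to 6 kb had a median ratio of −0.32, with 5254 of 6183 below 0. The part of length in the ratios of these 2 lists was not tested. The most abundant of the decay factors were *Eif4a3* (69.8 and 65.2 CPM), *Smg1* (43.0 and 91.4 CPM) and *Rbm8a* (64.3 and 65.0 CPM). Of 11 protein genes of RNase P and RNase Z, which process the *Malat1* end, 6 had a ratio above 0 (8 or 9 under the other scalings), from −0.53 for *Elac2*, the RNase Z, to 0.64 for *Rpp40*. The most abundant of them were *Pop5* (38.7 and 26.6 CPM), *Rpp14* (16.9 and 15.0 CPM) and *Elac2* (12.8 and 18.8 CPM).

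**Figure D4:**
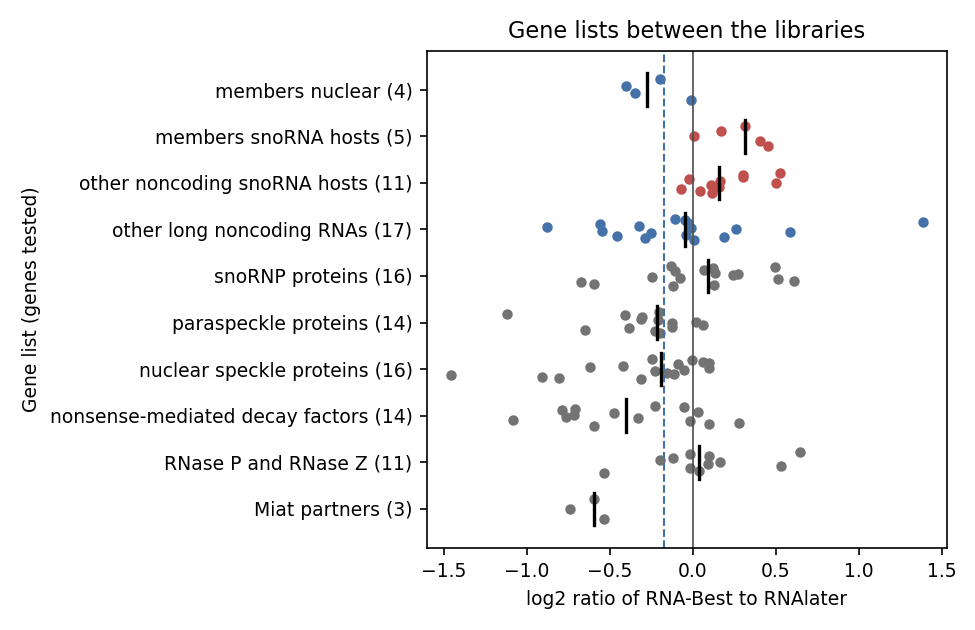
Log2 ratio of RNA-Best to RNAlater for each tested gene of the 10 lists (points), with the list median (black bar), 0 (solid line) and the median of all tested genes (dashed line, −0.18). The 5 host members and the 11 other hosts lie right of the dashed line, and the 3 *Miat* partners lie left of it. Other scalings move all points right by 0.13 to 0.18.

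The snoRNAs inside the members were almost without counts. Of 233 annotated snoRNA genes within the 5 hosts, 228 were at 0 in both libraries, and together they had 2 counts (RNA-Best) and 0 counts (RNAlater). Of these, 26 lie within annotated exons of the host, as both Snord47 and Snora61 do through transcripts that retain an intron, so their reads could not be told apart from those of the host. The 207 outside host exons, 206 of them in *Snhg14*, had 1 count (RNA-Best) and 0 counts (RNAlater). All 12 short RNA genes annotated within the exons of *Malat1*, *Neat1*, *Miat* and *Tug1* were likewise at 0 in both. A 0 for a nested gene is therefore no measure of its level, and libraries of poly(A) RNA are not made to capture mature snoRNAs.

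Overlaps with other genes limit some of the counts, since the strand setting of the counting was not stated. *Tug1* shares 483 exon bases with *Morc2a* on the opposite strand, which had 40.6 CPM (RNA-Best) and 67.5 CPM (RNAlater) (log2 ratio −0.73). *Snhg14* shares 1803 with *Ube3a* on the opposite strand, at 51.4 and 60.7 CPM (−0.24), and 27 with *Gm38393* on its own strand (−0.59). *Zbtb37* overlaps *Gas5* on the opposite strand without a shared exon base (−0.30). The genes opposite *Miat* and *Malat1*, *Gm26953* and *Gm37376*, were at 0 in both libraries. In the pairs that share exon bases, then, *Tug1* and *Snhg14* had higher ratios than their neighbours, and only *Malat1* and *Miat* among the members had whole counts in both libraries, the other 7 having fractions.

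By CPM, 6 of 9 members (the hosts and *Malat1*) lay above the median of all genes. A scaling moves all genes by nearly the same amount and so says nothing about the order of the members. The total without *Prl* and *Gh*, TMM and DESeq2 size factors moved the ratios by 0.13, 0.17 and 0.18 on the log2 scale, which is close in size to the ratio of *Snhg12* or *Tug1*.

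**Figure D5:**
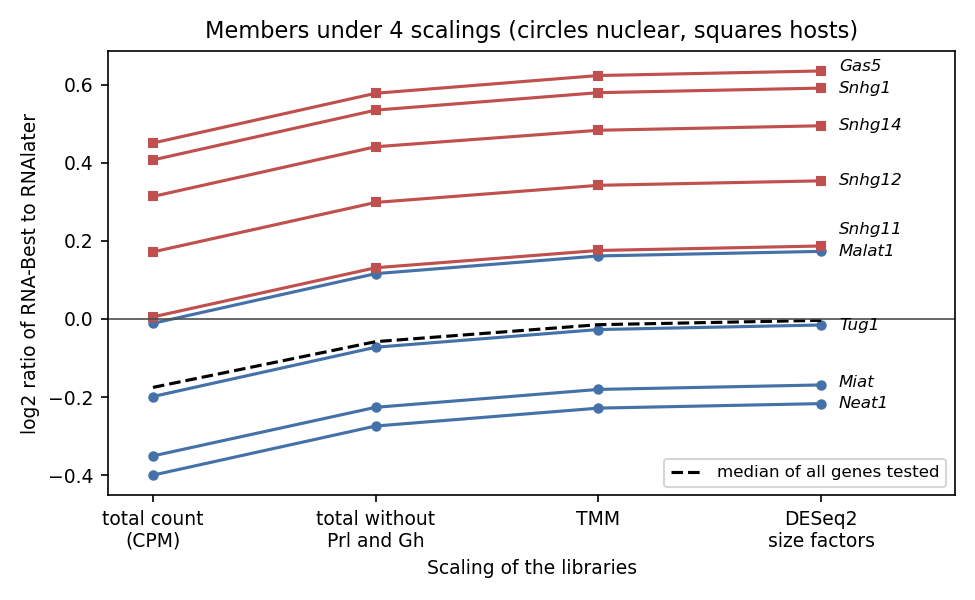
Log2 ratio of RNA-Best to RNAlater for the 4 nuclear RNAs (blue circles) and the 5 hosts (red squares) under 4 scalings of the libraries, with the median of all tested genes (dashed line). All lines move up together by 0.13 to 0.18, which leaves their order as it was by construction, and *Malat1* turns from −0.01 to between 0.12 and 0.17.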

How the data were processed

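Poly(A) RNA of 2 samples was sequenced, and samples were grouped by the stabilizer in the labels, 1 library each. RNA was extracted with an Agilent kit and libraries were made with an Illumina TruSeq mRNA kit. Per the submitters' processing notes, STAR 2.5.1b, featureCounts 1.5.0-p1 and build mm10 were used. The authors deposited 1 table of estimated counts per Ensembl gene, not normalized, in which 35.4% (RNA-Best) and 34.9% (RNAlater) of values above 0 were not whole. How shared reads were divided and the strand setting were not given in the sources used here, so levels of overlapping genes are uncertain.

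Symbols, gene types, lengths and coordinates came from GENCODE M21 on GRCm38, the assembly of mm10, with 46574 of 47069 identifiers matched (98.9%), version suffixes ignored. Of the 9 members 5 had the same gene version in M21 as in the table, so lengths and levels per kilobase of the others may rest on gene models other than those counted. Of 169 listed symbols 165 were found, 4 by RefSeq synonyms. Counts were scaled to CPM by the column total. Log2 ratios used 0.5 CPM and a mean of at least 1 CPM, and the pseudocount understates ratios of low genes. Intervals of ratios were exact conditional binomial (Clopper-Pearson) at 95%, on rounded counts without the pseudocount. A count of 0 allows 3 counts, or 0.0556 CPM (RNA-Best) and 0.0668 CPM (RNAlater).

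With 1 library per group no model was fitted. TMM factors came from edgeR 4.0.16, size factors from DESeq2 1.42.0 (R 4.3.3), and the rest from Python 3.11.15, numpy 2.4.6, scipy 1.17.1, pandas 2.3.3 and matplotlib 3.10.9. The log2 ratios and their counting intervals were tested on simulated counts, and the other steps were not. Named genes were the members, genes overlapping them, and in each list the highest, the lowest, the 3 most abundant and any past 2-fold. *Snrpn* and the genes of the closing observations were picked with their values already seen. The members and lists were chosen with earlier results of these data known.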

Additional observations from a re-analysis of the deposited data

How the results depend on the processing

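No paired analysis was possible because each stabilizer has 1 library, so leaving out a replicate was not possible either. The median log2 ratio was 0.01 over the 9 members, −0.27 over the 4 nuclear RNAs and 0.31 over the 5 hosts. Under TMM, DESeq2 size factors and the total without *Prl* and *Gh* it was 0.18, 0.19 and 0.13 over the 9 members, −0.10, −0.092 and −0.15 over the nuclear RNAs, and 0.48, 0.49 and 0.44 over the hosts. Of all tested genes, 45 were at least 2-fold higher and 824 at least 2-fold lower in RNA-Best. The higher count was 110 with TMM, 118 with DESeq2, 94 without *Prl* and *Gh* and 22 with 5 CPM added, and the lower count was 438, 423, 572 and 333. No member was past 2-fold under any of these, nor with 0.1 CPM added, no filter, a filter at 10 CPM, equal depth by thinning or rounded counts. *Malat1* was above 0 under the 3 other scalings (0.16, 0.17 and 0.12), and *Snhg11* changed sign within counting error at equal depth. Members lay above genes of like length in 9 of 9 cases also with merged exons and with a 10% window.

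The 2 libraries give no estimate of the spread between pools of cells, animals or library preparations, and stabilizer and library cannot be told apart. Depth was not the limit for the members, whose intervals were narrower than 0.24 on the log2 scale.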

Other observations

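Outside the lists, the long noncoding genes averaging 10 CPM or more that differed most between the libraries were named after their values were seen. *Gm15564* had 756 CPM (RNA-Best) and 274 CPM (RNAlater) (log2 ratio 1.46), and *Gm10076* had 395 and 188 CPM (1.07). Both have a longest transcript under 1 kb and fractional counts, and how shared reads were divided was not stated. At the other end, *Trerf1* had 14.4 and 27.7 CPM (−0.92) and *B930095G15Rik* had 11.8 and 21.9 CPM (−0.86). *Trerf1* is counted as long noncoding here only by its GENCODE M21 type, processed transcript. Of the 729 long noncoding genes tested, 11 (1.51%) were at least 2-fold different, beside 5.27% of all tested genes. Long noncoding genes made up 1.14% of the counts in RNA-Best and 1.12% in RNAlater. *Kcnq1ot1*, the imprinted RNA with the longest annotated transcript in the list of well-known long noncoding RNAs, was the highest of that list after *Rpph1*, at 0.58 (10.9 and 7.13 CPM).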
